A study of Danio rerio with 6 samples.

Results

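Among genes known from other systems as transcriptional targets of Yap, the list examined here leaves aside the CCN family and the Hippo feedback genes and takes in secreted, membrane, adhesion, stress and nuclear factors. It was set as 30 zebrafish gene symbols, of which 22 matched a row of the count table through the symbol of its Ensembl gene ID, either in zebrafish style or as the human-style capital symbol of the family. These 22 symbols correspond to 20 gene IDs out of 25640 in the table, since a capital symbol such as ANKRD1 stands for 2 listed paralogs and since ASAP1, FSTL1 and MYOF each cover 2 IDs. The names do not tell which paralog an ID with a capital symbol is, so the gene ID is given with each gene. For ANKRD1, GADD45A and THBS1 the gene name table holds 2 IDs each, but the count table holds only 1. The values given for these symbols thus cover 1 unidentified paralog each. The other ID has no row, which does not say whether it had reads. No gene in the count table had fewer than 30 reads over the 6 libraries. The other 8 symbols, axl, f3a, igfbp3, fjx1, arhgef17, wtip, ptpn14 and tead4, matched no row and so were not analysed here. Of these, ptpn14 and tead4 were also absent from the gene name table, while each of the others had an ID there. All 20 IDs passed the filter on low counts.

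Polyadenylated RNA was sequenced from livers of adult lf:Yap transgenic zebrafish (3 libraries) and of adult WT zebrafish (3 libraries). The labels give neither the promoter and the form of Yap in the transgene nor the age and sex of the fish, nor whether a library is 1 fish. P-values therefore measure the spread between these libraries, which may in part be technical. The question put by the series is how Yap acts on metabolism in the growing liver, and the list examined here asks how far genes known as Yap outputs elsewhere differed in these livers.

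Yap is a transcriptional coactivator with no DNA-binding domain of its own. It acts in the nucleus through the Tead factors, and the Hippo kinases Mst and Lats phosphorylate it and keep it in the cytoplasm. In mammalian cells Yap and its relative Taz raise secreted matrix proteins, surface receptors, cytoskeletal regulators and survival genes, and in mouse liver active Yap drives overgrowth. Most of the targets listed were defined in mammalian fibroblasts and epithelial cells, where ANKRD1 and AXL are common readouts.

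The libraries held 76038709 to 85208212 gene counts in lf:Yap and 71581315 to 87543545 in WT. YAP1 (ENSDARG00000068401) had 443, 386 and 291 CPM in lf:Yap livers (CPM, reads of a gene scaled to a common library total) and 22.6, 27.4 and 20.4 CPM in WT livers, which goes with the labels. The 13 hepatocyte marker IDs, with fabp10a and tfa among them, summed to 129560 to 133680 CPM in lf:Yap and 97640 to 115160 CPM in WT, so hepatocyte transcripts were abundant in every library. Enzyme genes of the exocrine pancreas, a tissue that lies along the fish liver, summed to 57.4 to 18868 CPM in lf:Yap and 641 to 16522 CPM in WT, and the ranges of the groups overlapped. In bulk tissue, fewer cells of a type and less RNA per cell cannot be told apart.

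None of the 20 target IDs passed the test over all genes in lf:Yap against WT (0 higher and 0 lower; edgeR's quasi-likelihood test with Benjamini-Hochberg adjustment at 0.05), where 0.665% of the 24674 genes tested passed (0.555% higher and 0.109% lower). The lowest adjusted p among them was 0.144, that of TGFB2. By the same test without adjustment, 5 IDs were higher and 1 was lower at p under 0.05, which is 25% and 5% of the list against 6.12% and 5.2% of all genes tested. The 3 lf:Yap values lay above the 3 WT values for 6 IDs and below them for 1, or 30% and 5% of the list, against 8.84% and 8.78% of all genes. The list was chosen with earlier results of these data known, so these shares describe it and test nothing. DESeq2, used as a second tool, called 3 IDs higher (TGFB2, AJUBA and CRIM1) and 0 lower, where it called 2.67% of its genes higher and 1.52% lower. The list's median log2 fold change was 0.10, with 12 of 20 IDs above 0, beside -0.03 over all genes with 46.8% above 0. That median was -0.0023 without WT replicate 3 and 0.27 without WT replicate 1, the ends of its range when 1 library was left out.

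**Figure D1:**
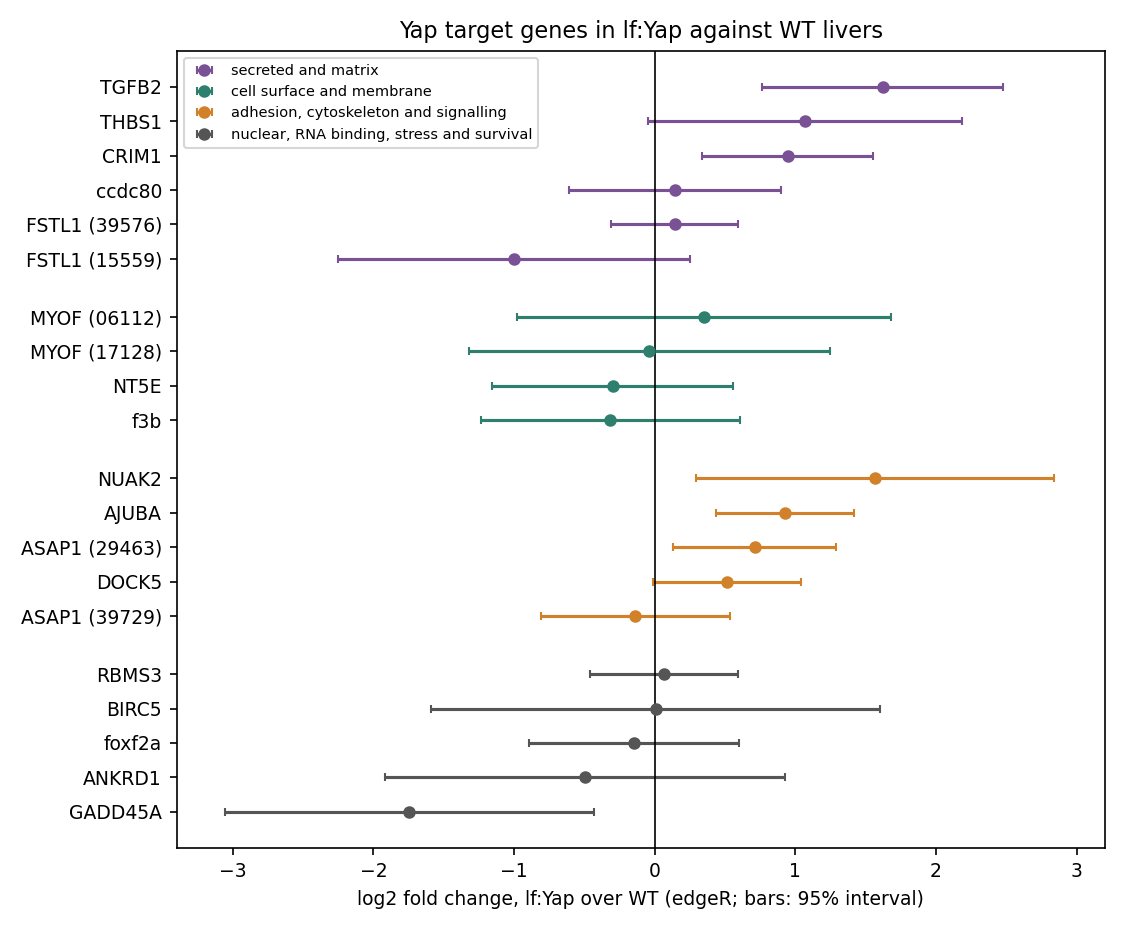
Log2 fold change of lf:Yap over WT for the 20 target IDs (x axis; edgeR) with its 95% interval, grouped and coloured by role; digits in brackets are the last digits of the gene ID where 2 IDs share a symbol. The intervals of TGFB2, CRIM1, NUAK2, AJUBA and 1 ASAP1 ID lie above 0, that of GADD45A lies below 0, and the other 14 include 0; none of the 20 passed after adjustment over all genes.

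The size of difference that this design could detect bears on that count. In counts simulated for lf:Yap against WT with the spread of these libraries (24102 genes tested, changed genes above 1 CPM), the test recovered 1 of 50 genes changed 2-fold and 25 of 50 changed 4-fold. The target genes all lay under a 4-fold difference, the largest being 3.07-fold higher for TGFB2 and 3.35-fold lower for GADD45A. An adjusted p above 0.05 in these data is thus no measure of equal expression, and the 95% interval of each difference is given below.

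Of the 6 IDs grouped as secreted and matrix, 5 lay above 0, as did 46.8% of all genes tested. The group's median log2 fold change of 0.54 lies between the values of ccdc80 (0.14) and CRIM1 (0.94). This group includes CRIM1, although its product is a membrane protein, so the median rests in part on that gene. After adjustment 0 passed, and 2 were higher at an unadjusted p under 0.05, as were 6.12% of all genes tested (edgeR). TGFB2 (ENSDARG00000027087), a ligand of the TGF-beta family that acts on stromal and epithelial cells, had 27.3, 10.9 and 13.2 CPM in lf:Yap livers against 5.50, 5.66 and 5.52 CPM in WT livers. Every lf:Yap library was above every WT library, and lf:Yap replicate 1 stood well above the other two, while the WT libraries were nearly level. The log2 fold change was 1.62 ± 0.36 (SE), a 3.07-fold difference with a 95% interval of 1.70- to 5.56-fold (adjusted p = 0.144 by edgeR and 0.00278 by DESeq2). Without lf:Yap replicate 1 the log2 fold change was 1.11, the lowest of the 6 fits that left out 1 library (adjusted p = 0.204, edgeR). CRIM1 (ENSDARG00000029668), which encodes a cysteine-rich membrane protein that tethers BMP ligands, had 7.82, 7.82 and 7.55 CPM in lf:Yap livers against 4.75, 4.49 and 2.81 CPM in WT livers. Its groups did not overlap and the lf:Yap libraries were the tighter ones. The log2 fold change was 0.94 ± 0.26 (SE; adjusted p = 0.219 by edgeR and 0.0446 by DESeq2), with a 95% interval of 0.34 to 1.55, and it ranged from 0.73 to 1.09 when 1 library was left out.

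THBS1 (ENSDARG00000010785), the gene of the matricellular glycoprotein thrombospondin, which binds matrix and can activate latent TGF-beta, had 4.90, 6.403 and 6.29 CPM in lf:Yap livers against 5.04, 1.53 and 1.81 CPM in WT livers. WT replicate 1 lay within the lf:Yap range and the other two WT libraries far below it, so the groups overlapped by that library. The log2 fold change was 1.07 ± 0.47 (SE; adjusted p = 0.466, edgeR), with a 95% interval of -0.05 to 2.19. Without WT replicate 1 it was 1.83 (adjusted p = 0.0846, edgeR), the lowest adjusted p of any listed ID in the fits that left out 1 library. WT replicate 1 also carried the highest values of the 6 libraries for 7 of 8 macrophage marker IDs and 8 of 16 mitosis IDs, with none of either list at 0. It did so for 5 of 12 stellate and fibroblast, 2 of 9 cholangiocyte, 1 of 10 exocrine pancreas and 0 of 7 endothelial marker IDs. The share of all genes highest of the 6 in this library was not counted. Macrophage markers summed to 149.7, 151.7 and 335.3 CPM in lf:Yap replicates 1, 2 and 3. In WT replicates 1, 2 and 3 they summed to 435.0, 177.6 and 153.2 CPM. Exocrine pancreas IDs, in the same order, summed to 13173, 57.4 and 18868 CPM in lf:Yap and 16522, 641 and 1585 CPM in WT. The part of any of these lists in the THBS1 values was not tested. The 7 endothelial marker IDs, none of them at 0, summed to 80.7 to 107.3 CPM in lf:Yap and 60.3 to 80.5 CPM in WT, ranges that narrowly did not overlap. Of these IDs 6 lay above 0 and 0 passed after adjustment. At an unadjusted p under 0.05, 2 were higher (cdh5 and FLI1), beside 6.12% of all genes tested (edgeR). The part of these markers in the values of the secreted factors was not tested.

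The remaining secreted factors lay closer to 0 or were scarce. FSTL1 (ENSDARG00000039576), a follistatin-like glycoprotein gene, had 25.3, 28.7 and 24.2 CPM in lf:Yap livers and 26.8, 23.5 and 20.6 CPM in WT livers. These groups overlapped, and the log2 difference of 0.14 ± 0.19 (SE; adjusted p = 0.865, edgeR) had a 95% interval of -0.31 to 0.59, the narrowest in its group. The other FSTL1 ID (ENSDARG00000015559) was near the limit of detection, with 12, 25 and 19 reads in lf:Yap libraries and 48, 56 and 24 reads in WT libraries. WT replicate 3 fell within the lf:Yap range, and the log2 difference was -0.9997 ± 0.5329 (SE; adjusted p = 0.561, edgeR). ccdc80 (ENSDARG00000000002), a gene of a secreted matrix-associated protein, averaged 3.14 ± 0.89 CPM in lf:Yap and 2.85 ± 0.68 CPM in WT (SD, n = 3 each). Its log2 difference of 0.14 ± 0.32 (SE) was -0.10 without lf:Yap replicate 3 and -0.04 without WT replicate 3, so its sign rested on single libraries.

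**Figure D2:**
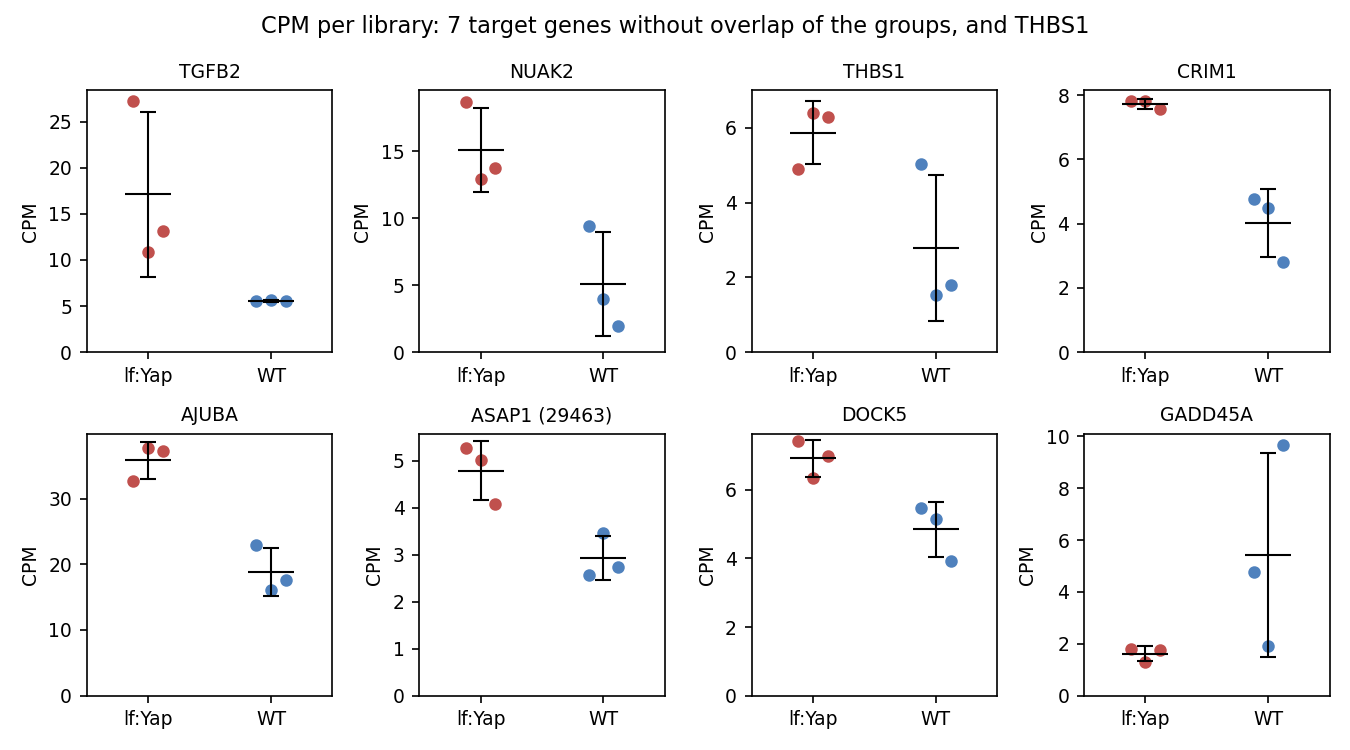
CPM (y axis, from 0) of 8 target genes in each library (points), lf:Yap on the left and WT on the right of each panel, with the mean and SD of 3 libraries in black. The groups of TGFB2, NUAK2, CRIM1, AJUBA, 1 ASAP1 ID, DOCK5 and GADD45A do not overlap, and WT replicate 1 of THBS1, at 5.04 CPM, lies among the lf:Yap libraries.

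Genes of adhesion, cytoskeleton and signalling had the highest median of the 4 groups, 0.71 on the log2 scale. Of 5 IDs 4 lay above 0, all 4 without overlap of lf:Yap and WT, and 3 were higher at an unadjusted p under 0.05 (edgeR). Over all genes tested these shares were 46.8%, 8.84% and 6.12%. After adjustment 0 of the 5 passed, and whether the 4 role groups differ was not tested. AJUBA (ENSDARG00000077842) encodes a LIM-domain scaffold of cell junctions that restrains the Lats kinases in mammals and flies. It had 32.6, 37.7 and 37.3 CPM in lf:Yap livers against 23.0, 16.01 and 17.6 CPM in WT livers, and the groups did not overlap. The 1.90-fold difference (log2 fold change 0.93 ± 0.21, SE) had a 95% interval of 1.35- to 2.68-fold and an adjusted p of 0.147 by edgeR and 0.00779 by DESeq2. Leaving out 1 library gave log2 fold changes of 0.82 to 1.11.

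NUAK2 (ENSDARG00000063661), a kinase related to AMPK that acts on actomyosin contractility in mammals, had 18.7, 12.9 and 13.7 CPM in lf:Yap livers against 9.43, 3.95 and 1.92 CPM in WT livers. The groups did not overlap, but the WT libraries spread widely, and WT replicate 1 was again the highest of its group. The log2 fold change was 1.57 ± 0.54 (SE; adjusted p = 0.336, edgeR; 0.0876, DESeq2), a 2.96-fold difference with a 95% interval of 1.22- to 7.16-fold. Without WT replicate 1 it was 2.37, and without WT replicate 3 it was 1.16.

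DOCK5 (ENSDARG00000001968), an exchange factor for the small GTPase Rac, had 7.41, 6.35 and 6.98 CPM in lf:Yap livers against 5.47, 5.13 and 3.93 CPM in WT livers. Its groups stood apart by a small margin, and the log2 difference of 0.51 ± 0.22 (SE; adjusted p = 0.455, edgeR) had a 95% interval of -0.01 to 1.04. ASAP1 encodes an Arf GTPase-activating protein of focal adhesions and occurs here as 2 IDs. The first (ENSDARG00000029463) had 5.28, 5.01 and 4.07 CPM in lf:Yap livers against 2.57, 3.46 and 2.75 CPM in WT livers, without overlap. Its log2 fold change was 0.71 ± 0.25 (SE; adjusted p = 0.338, edgeR). The second ASAP1 ID (ENSDARG00000039729) had 6.31, 8.84 and 7.89 CPM in lf:Yap livers and 8.71, 10.9 and 5.77 CPM in WT livers, which overlapped. Its log2 difference was -0.14 ± 0.29 (SE; adjusted p = 0.919, edgeR), and 0.08 without WT replicate 2.

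**Figure D3:**
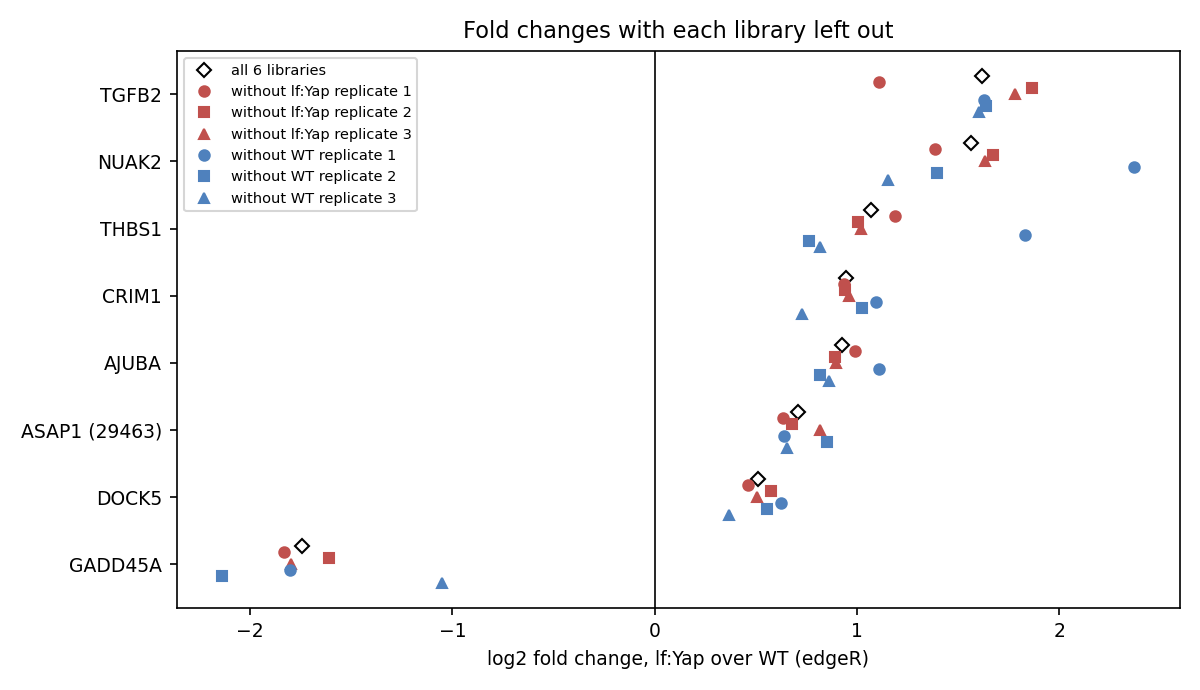
Log2 fold change of lf:Yap over WT (x axis; edgeR) for the 8 target genes of the CPM plot, with all 6 libraries (open diamonds) and with each library left out (red, an lf:Yap library; blue, a WT library). Each of the 8 keeps its sign in all fits; the value of TGFB2 is 1.11 without lf:Yap replicate 1, that of NUAK2 is 2.37 and that of THBS1 is 1.83 without WT replicate 1, and that of GADD45A is -1.05 without WT replicate 3.

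The 4 IDs grouped as cell surface and membrane, which do not include CRIM1, differed between lf:Yap and WT by less than the spread of the libraries. Their median log2 fold change was -0.17, the groups overlapped for all 4, and 0 passed with or without adjustment (edgeR; 0 by DESeq2). NT5E (ENSDARG00000071017), the ecto-nucleotidase that makes adenosine from extracellular AMP, had 3.22, 4.38 and 3.77 CPM in lf:Yap livers and 7.25, 3.57 and 3.17 CPM in WT livers. WT replicate 1 was the highest by far, and the log2 difference of -0.30 ± 0.36 (SE; adjusted p = 0.845, edgeR) was 0.18 without it. f3b (ENSDARG00000005673), a paralog of the tissue factor gene that starts coagulation, averaged 1.03 ± 0.37 CPM in lf:Yap and 1.29 ± 0.35 CPM in WT (SD, n = 3 each). Its log2 difference was -0.31 ± 0.39 (SE), with a 95% interval of -1.24 to 0.61.

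MYOF, a gene of the ferlin family that acts in membrane repair and fusion, also occurs as 2 IDs. The first (ENSDARG00000006112) had 0.973, 0.317 and 1.33 CPM in lf:Yap livers and 0.857, 0.759 and 0.440 CPM in WT livers. The second (ENSDARG00000017128) had 2.07, 0.868 and 4.16 CPM in lf:Yap livers and 2.22, 3.14 and 1.92 CPM in WT livers. For both IDs lf:Yap replicate 2 was the lowest and lf:Yap replicate 3 the highest of all 6 libraries. Their log2 differences were 0.35 ± 0.57 and -0.04 ± 0.55 (SE), and each changed sign in 1 or more of the fits that left out 1 library. lf:Yap replicate 2 was also the lowest library for 10 of 10 exocrine pancreas IDs, none of them at 0, and lf:Yap replicate 3 the highest for 9 of 10. The same counts were 5 and 3 of 12 for stellate and fibroblast markers, and 4 and 1 of 8 for macrophage markers. The share of all genes highest or lowest of the 6 libraries in each library was not counted. The 10 exocrine pancreas IDs summed to 13173, 57.4 and 18868 CPM in lf:Yap replicates 1, 2 and 3. In WT replicates 1, 2 and 3 they summed to 16522, 641 and 1585 CPM. The part of any of these marker lists in the MYOF values was not tested.

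Among the 5 nuclear, RNA-binding, stress and survival IDs, 2 lay above 0 and 3 lower than 0. Their median was -0.15 on the log2 scale, and 0 passed after adjustment. At an unadjusted p under 0.05, 1 was lower and 0 higher in edgeR, beside 5.2% and 6.12% of all genes tested, and DESeq2 called 0. GADD45A (ENSDARG00000043581), a gene induced by DNA damage and other stress whose product slows the cell cycle, had 1.81, 1.31 and 1.75 CPM in lf:Yap livers against 4.75, 1.90 and 9.67 CPM in WT livers. It was the only listed ID with every lf:Yap library below every WT library, though WT replicate 2 lay just above them and WT replicate 3 far above. The log2 fold change was -1.74 ± 0.56 (SE; adjusted p = 0.297 by edgeR and 0.0519 by DESeq2), a 3.35-fold lower level, and it was -1.05 without WT replicate 3. The list was drawn up of genes that Yap raises elsewhere, so this value lies in the other direction.

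ANKRD1 (ENSDARG00000076192), a nuclear and sarcomeric ankyrin repeat protein gene and a standard readout of Yap in mammalian cells, gave 9, 12 and 10 reads in lf:Yap libraries and 15, 27 and 8 reads in WT libraries. At this depth, 0.138 ± 0.028 CPM in lf:Yap and 0.194 ± 0.104 CPM in WT (SD, n = 3 each), a small difference was not detectable. The log2 difference of -0.50 ± 0.61 (SE) had a 95% interval of -1.92 to 0.93. Its upper end was a 1.90-fold higher level in lf:Yap. BIRC5 (ENSDARG00000075621), the survivin gene, whose product blocks apoptosis and serves in the chromosomal passenger complex of mitosis, gave 28, 26 and 10 reads in lf:Yap libraries and 28, 8 and 34 reads in WT libraries. Its log2 difference was 0.01 ± 0.68 (SE; 95% interval -1.59 to 1.60), and its sign changed in 3 of the 6 fits that left out 1 library. The 16 mitosis IDs beside it had a median log2 fold change of -0.50, with 12 of them negative and 0 called by edgeR or DESeq2. At an unadjusted p under 0.05, 3 were lower in edgeR, beside 5.2% of all genes tested.

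RBMS3 (ENSDARG00000044574), an RNA-binding protein gene, had 10.8, 12.9 and 11.4 CPM in lf:Yap livers and 14.0, 9.88 and 9.60 CPM in WT livers. The groups overlapped, and the log2 difference of 0.07 ± 0.22 (SE; adjusted p = 0.954, edgeR) had a 95% interval whose upper end was a 1.51-fold difference. It was -0.05 without WT replicate 3. foxf2a (ENSDARG00000017195), a forkhead factor gene of mesenchymal and mural cells, averaged 0.934 ± 0.097 CPM in lf:Yap and 1.03 ± 0.20 CPM in WT (SD, n = 3 each). Its log2 difference was -0.15 ± 0.32 (SE), and 0.03 without WT replicate 2. The 12 stellate and fibroblast marker IDs, cells in which several of these genes are known to be expressed, summed to 40.4 to 98.4 CPM in lf:Yap and 38.5 to 94.4 CPM in WT, which overlapped.

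Within each group the IDs were not spread evenly over the libraries. WT replicate 1 was the highest WT library for 11 of the 20 IDs and the lowest for 2, and WT replicate 3 was the highest for 2 and the lowest for 14. Over all genes tested, WT replicates 1, 2 and 3 were the highest of their group for 33.3%, 30.6% and 36.1%. The share of all genes lowest in each library was not counted, so the counts of lowest IDs stand without that background. Among the lf:Yap libraries, replicate 1 was the highest for 6 IDs and the lowest for 9, replicate 2 for 10 and 7, and replicate 3 for 4 and 4, where 33.2%, 32.3% and 34.5% of all genes were highest in replicates 1, 2 and 3. The 6 IDs highest in lf:Yap replicate 1 were TGFB2, NUAK2, DOCK5, the first ASAP1 ID, GADD45A and, by a near tie, CRIM1, whereas AJUBA and THBS1 were lowest there.

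**Figure D4:**
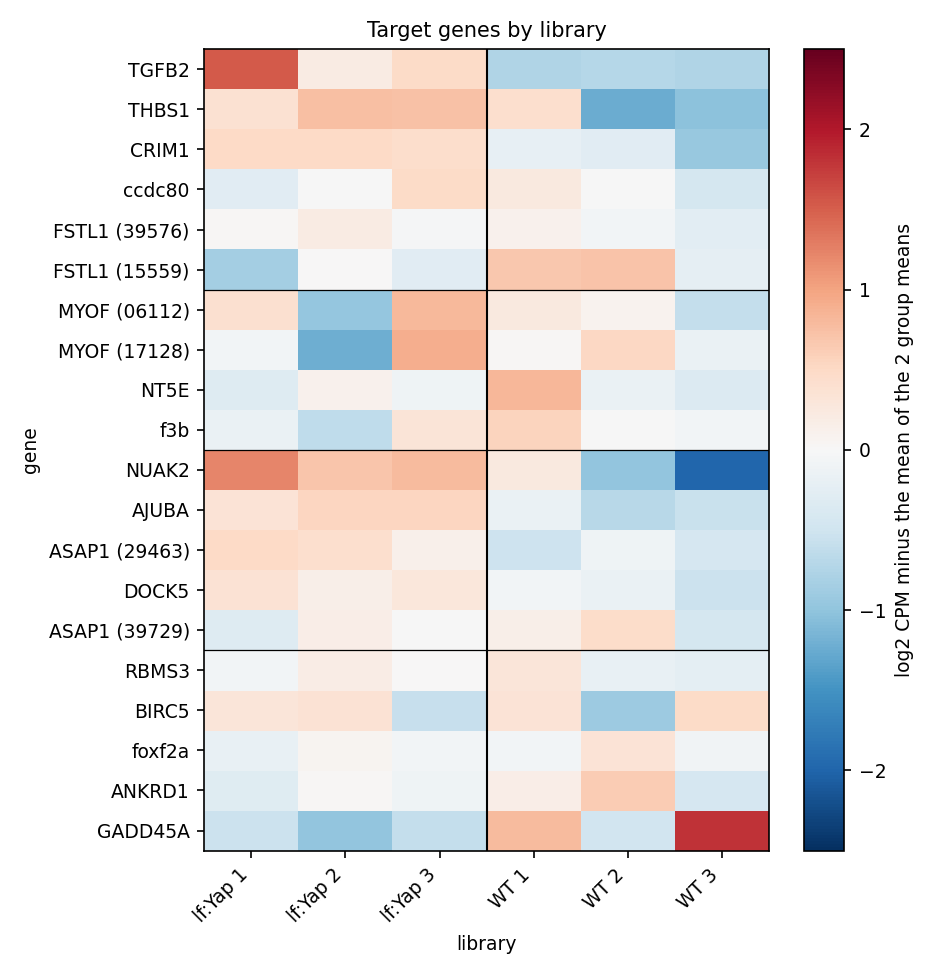
Log2 of CPM plus 0.1 for each of the 20 target IDs (rows, by role) in each library (columns), relative to the mean of the lf:Yap and WT group means; red is above and blue below it. NUAK2 and THBS1 are blue in WT replicates 2 and 3 but not in WT replicate 1, both MYOF IDs are blue in lf:Yap replicate 2, and the deepest red of TGFB2 is in lf:Yap replicate 1.

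Where 2 IDs share a symbol, the ratio of their counts within a library does not depend on how libraries are scaled. For ASAP1 the log2 ratio of the first to the second ID was -0.26, -0.82 and -0.95 in lf:Yap libraries and -1.76, -1.65 and -1.07 in WT libraries. The lf:Yap ratios all lay above the WT ratios, a mean difference of 0.82 on the log2 scale. For FSTL1 the log2 ratio of ENSDARG00000015559 to ENSDARG00000039576 was -7.32, -6.32 and -6.45 in lf:Yap libraries and -5.44, -5.21 and -6.15 in WT libraries, a mean difference of -1.10, again without overlap. For MYOF the groups overlapped, with a mean difference of 0.45. The two-sided exact permutation test gave p = 0.1 for ASAP1 and for FSTL1, the smallest that 3 against 3 libraries allow, and p = 0.3 for MYOF (0.15, 0.15 and 0.3 after Benjamini-Hochberg adjustment over the 3 pairs). A threshold of 0.05 is thus out of reach of this test. How reads that fit both IDs of a pair were counted is not described in the sources used here.

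**Figure D5:**
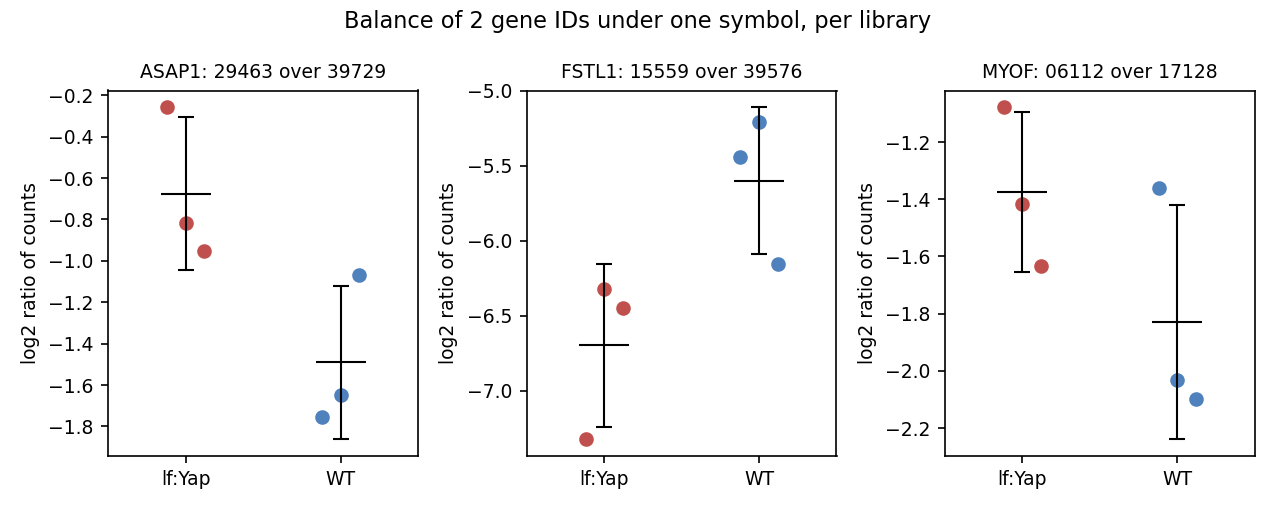
Log2 ratio of the counts of the 2 gene IDs under ASAP1, FSTL1 and MYOF in each library (points; y axes differ in range), lf:Yap on the left and WT on the right, with mean and SD in black. The lf:Yap ratios lie above the WT ratios for ASAP1 and below them for FSTL1, and the ranges overlap for MYOF.

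Beside these genes, the CCN family and the Hippo pathway gave calls in the same fit, in which 0.555% of all genes tested rose and 0.109% fell. Of 7 CCN family IDs 2 rose and 0 fell (CCN2, ENSDARG00000042934, and CCN5, ENSDARG00000077882), with 5 of the 7 above 0 and 2 below. All 7 together summed to 60.9 to 83.4 CPM in lf:Yap and 5.19 to 7.12 CPM in WT. In lf:Yap CCN2 and CCN5 averaged 36.0 and 31.2 CPM, most of that sum. Of 27 IDs of the Hippo pathway and Tead list 3 rose and 0 fell. Among them was YAP1, the gene that the lf:Yap label names, so its rise goes with the design. The others were the kinase gene LATS2 (ENSDARG00000078864) and amotl2b (ENSDARG00000061948), whose product binds Yap. The fold changes of LATS2, amotl2b and CCN2 were 2.60, 20.8 and 15.8, and that of CCN5 was 173.7 over a WT mean of 0.177 CPM. Of the 6 fits that left out 1 library, YAP1 passed in 6, amotl2b and CCN5 in 5 each, CCN2 in 1 and LATS2 in 0, with adjusted p-values for LATS2 of 0.0703 to 0.138 (edgeR). AJUBA, the listed target with the narrowest interval above 0, stood at 1.90-fold and TGFB2, the highest, at 3.07-fold. Whether the lists differ from each other was not tested. The 5 targets higher at an unadjusted p under 0.05 stood beside hepatocyte markers with 9 of 13 IDs above 0 and 4 lower than 0 (median 0.11 on the log2 scale). Of those lower, CP, fga and serpina1l lay at -0.02, -0.05 and -0.09. The summed markers were higher in every lf:Yap library (129560 to 133680 CPM) than in any WT library (97640 to 115160 CPM). Without overlap of the groups 5 of these markers were higher, among them fabp10a (ENSDARG00000038439) at 1.51-fold and HNF4A (ENSDARG00000021494) at 1.89-fold. In the other direction 1 was lower without overlap, the fibrinogen gene FGB (ENSDARG00000008969), at -0.34 on the log2 scale. Over all genes tested 8.84% were higher and 8.78% lower without overlap. After adjustment 0 of the 13 passed in edgeR. At an unadjusted p under 0.05, 5 were higher in edgeR, beside 6.12% of all genes, and DESeq2 called 2 higher, beside 2.67% of its genes. Their part in the target values was not tested.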

How the data were processed

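The deposited table gives a raw, unnormalized read count per Ensembl gene in each of 6 libraries. HTSeq 0.6.0 and STAR 2.3.0e are listed in the submitters' processing notes; build, annotation and strandedness are not given in the sources read here. A gene name table paired 17999 of 25640 IDs with a symbol.

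The members and lists were chosen with earlier results of these data known. All 30 listed symbols were to be named. Other genes were named where they passed in the CCN or Hippo lists, or as markers. TEAD3, WWC3 and nf2a are exceptions, named after their values were seen. The count test was edgeR 4.0.16 (R 4.3.3). filterByExpr kept 24674 genes, TMM factors and a robust quasi-likelihood fit were used, and two-sided p-values were adjusted by Benjamini-Hochberg over all tested genes at 0.05. CPM use TMM-scaled totals, and the SE is the log2 fold change over the square root of F. Intervals of 95% use the fit's degrees of freedom. The within-library ratio adds 1 read to each count. The procedure was tested on simulated data: 14 of 135 calls were false, a larger share than the 0.05 set as threshold. Replicate pairs differed beyond sampling noise (chi-square per degree of freedom 197 to 355). Alternatives were RLE factors, no filter, DESeq2 1.42.0, a replicate block, 5 reads in the ratio and leaving out each library.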

Additional observations from a re-analysis of the deposited data

How the results depend on the processing

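All 20 target IDs kept their sign under RLE factors, without the filter, by DESeq2 and with the replicate number as a block, and none passed in any edgeR fit. The count of target IDs that passed was 3 by DESeq2, which called TGFB2, AJUBA and CRIM1 at log2 fold changes of 1.63, 0.93 and 0.95. The number of all genes called was 164 in the main fit, 1066 by DESeq2, 17 with the replicate block and 32 to 94 without 1 library. The labels do not say whether equal numbers in the titles mark paired samples. Deviations of same-numbered libraries correlated at 0.077, 0.031 and -0.212, and not every library correlated best with its own number. These values gave no sign of pairing, but they cannot exclude it, because the labels do not describe how samples were taken. The cause of the shifts in the number of genes called was not tested. The fits without 1 library differ from the main fit both in the number of libraries and in which libraries they hold.

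Leaving out 1 library, 12 IDs kept their sign and 8 changed it in 1 or more fits. Their log2 fold changes then ranged from -0.363 to 0.0824 for ASAP1 (ENSDARG00000039729), -0.0816 to 0.751 and -0.721 to 0.361 for MYOF (ENSDARG00000006112 and ENSDARG00000017128), -0.530 to 0.184 for NT5E, -0.410 to 0.328 for BIRC5, -0.236 to 0.0278 for foxf2a, -0.0454 to 0.279 for RBMS3 and -0.104 to 0.328 for ccdc80. Depth limits ANKRD1, BIRC5, MYOF (ENSDARG00000006112) and FSTL1 (ENSDARG00000015559), with fewer than 100 reads in every library.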

Other observations

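Chosen after its values were seen, TEAD3 (ENSDARG00000063649), a gene of the DNA-binding partners of Yap, had 9.95, 7.20 and 7.19 CPM in lf:Yap livers against 10.9, 1.57 and 1.66 CPM in WT livers. As for THBS1, WT replicate 1 stood apart from the other two WT libraries, but for TEAD3 it was the highest of all 6. Its log2 difference was 0.79 ± 0.74 (SE; adjusted p = 0.782, edgeR). The second TEAD3 ID (ENSDARG00000074321) had 1.03, 0.578 and 1.32 CPM in lf:Yap livers against 0.391, 0.335 and 0.243 CPM in WT livers, without overlap (log2 difference 1.59 ± 0.44, SE; adjusted p = 0.228, edgeR). WWC3 (ENSDARG00000061654), a gene of the KIBRA family upstream of Lats, was likewise chosen after its values were seen. It had 19.3, 20.1 and 20.3 CPM in lf:Yap livers against 10.9, 13.3 and 9.61 CPM in WT livers, without overlap (adjusted p = 0.169 by edgeR and 0.0156 by DESeq2). Of the 27 IDs of the Hippo pathway and Tead list, 8 were higher and 1 was lower without overlap (nf2a, ENSDARG00000020204, at -0.58 on the log2 scale). Over all genes tested these shares were 8.84% and 8.78%.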
